A study of Homo sapiens with 4 samples.

Results

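The genes described here are MYBL2, MYBL1 and FOXM1, which encode transcription factors that drive the late cell cycle, and LIN9, LIN37, LIN52, LIN54 and RBBP4, which encode the 5 subunits of the MuvB core complex that MYBL2 and FOXM1 bind. They were found by gene symbol in the deposited expression tables, where all 8 were listed once among 58735 genes. RNA-seq was performed on HaCaT cells (HaCAT in the sample labels), an established line of human keratinocytes, with 2 siControl libraries from cells labelled WT and given a normal control siRNA, and 2 siALKBH5 libraries from cells given an siRNA that knocks down ALKBH5, the demethylase that removes m6A from RNA. All cells were cultured and transfected by the same protocol, and both groups came from this 1 line. The labels do not say which ALKBH5 siRNA was used or whether the libraries of a group were separate cultures, so p-values measure the spread between these libraries, which may be technical. The question asked of the data was whether these genes, and the genes whose promoters they occupy, changed after ALKBH5 knockdown.

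The MuvB core is a platform that serves opposite roles in turn. In resting and early G1 cells it joins the pocket proteins RBL1 or RBL2 and an E2F4 or E2F5 dimer to form DREAM, which represses cell cycle genes. In S phase the pocket protein leaves and the core binds the MYBL2 protein (B-MYB), and in G2 it recruits FOXM1, and the same promoters are then activated. LIN54 contacts the DNA of the cell cycle genes homology region (CHR), found in many promoters of mitotic genes, whereas E2F sites mark many genes of DNA replication. In keratinocytes these programmes belong to the proliferating basal layer.

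The sequences below show letters that match the CHR or the E2F element, in the promoters of the members themselves and of some target genes described further on. Windows from 250 bases before to 50 bases after the transcription start were taken from RefSeq (GRCh38.p14), and 6 of the 8 members had one; FOXM1 and MYBL1 were not matched. The windows were searched on both strands for TTTGAA or TTCGAA, taken as the CHR, for GGCGGGA, taken as the E2F element, and for CCAAT, the box bound by NF-Y. TTCGAA is its own reverse complement, and no CHR match overlaps an E2F match in the stretches shown. Each stretch runs 5′ to 3′ on the strand of its gene, holds 30 bases around a match that lies before the start, and has CHR and E2F matches in capitals. The members come first, then 2 targets of the late cell cycle and 2 targets of DNA replication. Stretches were also sought for the late targets BIRC5 and CENPE and the replication targets ORC1 and DTL. For ORC1 and DTL, the windows held no E2F match before the start. For BIRC5 and CENPE, no match to any of the motifs was found, and it was not established that they had a window. Of the 40 late targets listed, 35 had one. The targets shown are therefore those that had a match.
MYBL2 (chr20:43667063-43667092, plus strand): gccgacgcgcttGGCGGGAgatagaaaagt
LIN9 (chr1:226309207-226309236, minus strand): gcgagctccgcaTTCGAAcctccctcgcaa
LIN37 (chr19:35748630-35748659, plus strand): tcTTTGAActgtccccgccttcTCCCGCCt
LIN52 (chr14:74084921-74084950, plus strand): ggaacctcgtttTCCCGCCgacggttggcc
LIN54 (chr4:83010897-83010926, minus strand): gcgTTTGAAggttggcggggcGGCGGGAgg
RBBP4 (chr1:32651120-32651149, plus strand): cttccccgcccaTCCCGCCattaggagcgc
CDCA8 (chr1:37692481-37692510, plus strand): gtgactgtggagTTTGAAttgggtggcggt
PLK1 (chr16:23678848-23678877, plus strand): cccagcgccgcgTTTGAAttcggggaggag
CDC45 (chr22:19479886-19479915, plus strand): gagccgtgatttGGCGGGAgtcttgaccgc
MCM10 (chr10:13161528-13161557, plus strand): ctgacgtcaaggcaggGGCGGGAtccggtt

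The E2F element of MYBL2 began 39 bases before the start, and its window held no CHR. All 6 members with a window held GGCGGGA or its complement TCCCGCC, and LIN9, LIN37 and LIN54 held a CHR as well. In LIN54 the CHR began 100 bases and the E2F element 82 bases before the start, and in LIN37 the distances were 182 and 162 bases. For comparison, the E2F letters occurred in 15.4% and the CHR letters in 16.4% of all 35116 windows, and in 29.8% and 15.3% of the 10374 tested genes that had a window. A match describes the letters only and does not show that a protein binds there. With the exception of LIN54, the stretches shown overlap an exon that GENCODE 29 annotates for the same gene, so some transcripts start further upstream.

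The libraries held 16017502 to 18837807 counts on genes, and 15075 genes passed the expression filter and were tested. ALKBH5 had 93.8 and 87.6 CPM (counts scaled to a common, TMM-normalized library size) in siControl and 51.2 and 49.6 in siALKBH5, so the targeted gene was lower in both knockdown libraries (log2 fold change -0.85, adjusted p = 6.4e-15). All adjusted p-values below are from edgeR's quasi-likelihood test over all tested genes with Benjamini-Hochberg adjustment, and a gene is called higher or lower at an adjusted p under 0.05. The 11 keratinocyte markers were all detected, with summed levels of 20020 and 19590 CPM in siControl and 25610 and 25680 CPM in siALKBH5, and 6 of them were called higher and 4 lower. Of the 8 fibroblast markers, 4 were at 0 in every library and the list summed to 18.7 to 22.8 CPM, and the melanocyte, leukocyte and endothelial lists each summed to 14.4 CPM or less. Mitochondrial genes took 10.2% of the counts in siControl and 9.63% and 9.64% in siALKBH5. The part of these differences between the groups in the results below was not tested.

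MYBL2 and FOXM1 were both more than doubled after ALKBH5 knockdown, whereas no subunit of the MuvB core was called higher and RBBP4 was called slightly lower. MYBL2 (ENSG00000101057, chr20:43667019-43716496, plus strand) was counted 377 and 417 times under siControl against 1097 and 993 times under siALKBH5. This corresponds to 23.3 ± 0.157 CPM (SD, n = 2) for siControl and 59.5 ± 1.14 CPM (SD, n = 2) for siALKBH5. The groups were far apart, and the libraries within each group nearly coincided. The log2 fold change of MYBL2 was 1.35 (standard error 0.07, 95% interval 1.21 to 1.49, adjusted p = 3.4e-17), a ratio of mean levels of 2.56, and 99.2% of the tested genes had a smaller log2 fold change.

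FOXM1 (ENSG00000111206, chr12:2857681-2877155, minus strand) was counted 702 and 684 times under siControl against 1645 and 1444 times under siALKBH5. The level was thus 40.8 ± 3.93 CPM (SD, n = 2) for siControl and 87.9 ± 0.232 CPM (SD, n = 2) for siALKBH5, so the lower knockdown library was well above the higher control library. The log2 fold change of FOXM1 was 1.11 (standard error 0.06, 95% interval 0.99 to 1.23, adjusted p = 6.4e-17), a ratio of 2.16. Of the exonic bases of FOXM1, 15.9% are shared with ITFG2 on the other strand, and the strand setting of the counting is not given in the sources used here. ITFG2 itself was counted 163 and 177 times under siControl and 157 and 119 times under siALKBH5 (log2 fold change -0.35, adjusted p = 0.051), far fewer than FOXM1. RHNO1, which starts inside FOXM1 on the other strand without sharing exonic bases, was higher as well, with a log2 fold change of 0.44 (adjusted p = 2.5e-05).

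Of the 7 members tested, MYBL2 and FOXM1 were called higher and RBBP4 was called lower, against a background of 19.3% of all tested genes called higher, 17.3% called lower and 36.6% called in either direction. With the further requirement that the log2 fold change be 1 or more in size, MYBL2 and FOXM1 were still called, as were 1.62% of all tested genes on the higher side, and no member was among the 1.3% called on the lower side. Because bulk RNA was measured, more cells in a phase of the cell cycle and more RNA per cell cannot be told apart for these genes or for the targets below.

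**Figure D1:**
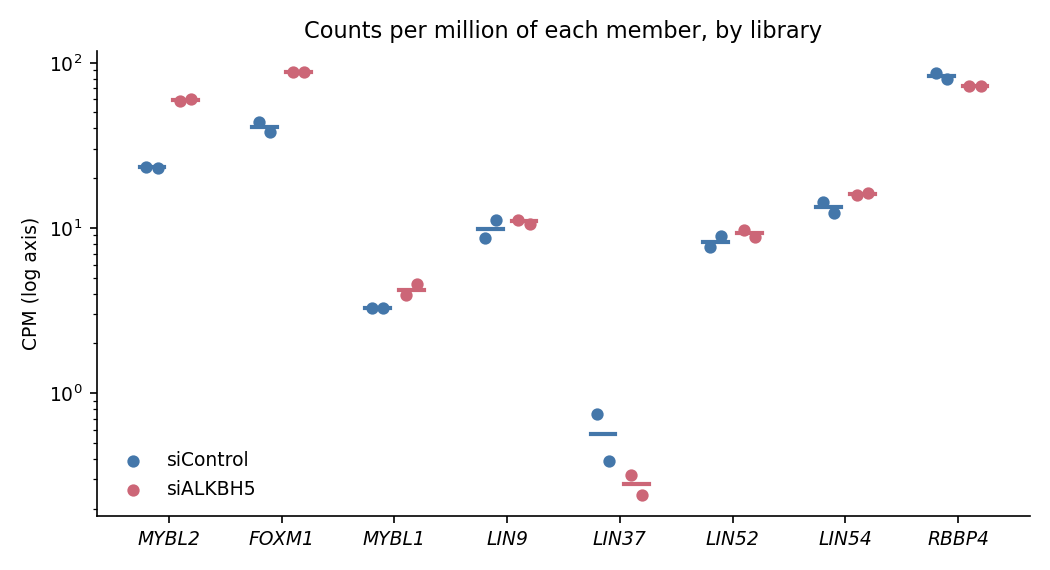
Level of each of the 8 members in every library, in CPM on a log axis, with siControl in blue and siALKBH5 in red; points are libraries and lines are group means. MYBL2 rises from 23.3 to 59.5 CPM and FOXM1 from 40.8 to 87.9 CPM, whereas no MuvB gene is called higher and RBBP4 falls.

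MYBL1 (chr8:66562175-66614247, minus strand) encodes A-MYB, a relative of B-MYB best known from male meiosis. It was weakly expressed, with 53 and 59 counts under siControl against 73 and 75 counts under siALKBH5. Both knockdown libraries were above both control libraries, yet the log2 fold change of 0.36 (95% interval -0.08 to 0.80, adjusted p = 0.20) did not pass the test. The interval reaches from no change to a rise well short of that of MYBL2. MYBL1 was therefore not shown to follow MYBL2 or to stay unchanged.

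In the MuvB core, LIN54 (chr4:82909973-83012926, minus strand) is the subunit that binds DNA. Its siControl libraries held 232 and 222 counts and its siALKBH5 libraries 297 and 267, or 14.4 and 12.3 CPM against 15.9 and 16.2 CPM. The groups did not overlap, but the log2 fold change of 0.27 (95% interval 0.04 to 0.50) had an adjusted p of 0.064 (unadjusted p = 0.025 from edgeR). Without siControl replicate 1 it passed the test, with a log2 fold change of 0.38 and an adjusted p of 0.031.

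LIN9 (chr1:226231149-226309869, minus strand) and LIN52 (chr14:74084796-74201235, plus strand) together form the surface on which B-MYB docks, and LIN52 also carries the phosphorylation that recruits the pocket proteins. LIN9 was counted 140 and 200 times under siControl against 210 and 175 times under siALKBH5, and the groups overlapped, with siALKBH5 replicate 2 at 10.6 CPM between the control libraries at 8.69 and 11.1 CPM. Its log2 fold change of 0.14 (95% interval -0.14 to 0.41, adjusted p = 0.46) turned to -0.019 without siControl replicate 1. For LIN52 the counts were 123 and 160 under siControl against 181 and 146 under siALKBH5, with overlapping levels and a log2 fold change of 0.17 (95% interval -0.12 to 0.45, adjusted p = 0.39). The upper bounds of these intervals, 0.41 and 0.45, lie below the lower bounds for MYBL2 and FOXM1, 1.21 and 0.99.

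RBBP4 (chr1:32651142-32686211, plus strand) encodes a histone-binding protein that is shared with several chromatin complexes. It was counted 1405 and 1436 times under siControl against 1343 and 1198 times under siALKBH5, and both knockdown libraries, at 71.9 and 72.8 CPM, were below the control libraries at 87.2 and 79.8 CPM. Its log2 fold change was -0.21 (standard error 0.05, 95% interval -0.31 to -0.10, adjusted p = 0.0014). The fall was no longer called without siControl replicate 1, the higher of the control libraries, where the log2 fold change was -0.14 and the adjusted p 0.078. RBBP4 shares 18.0% of its exonic bases with SYNC on the other strand, which had 24 to 37 counts per library. Its 6 annotated processed pseudogenes together held 27 and 28 counts under siControl against 40 and 32 under siALKBH5, or 1.92% to 2.98% of the counts of RBBP4.

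LIN37 (chr19:35748361-35754519, plus strand), a subunit needed for repression by DREAM, was counted only 12 and 7 times under siControl against 6 and 4 times under siALKBH5, and it did not pass the expression filter. The summed counts gave a ratio of 0.511 with a 95% counting interval of 0.212 to 1.16, so a difference was not detectable at this depth. Annotated genes share 54.0% of the exonic bases of LIN37, and 26.7% are shared with AD000671.1 on the same strand. AD000671.1 was at 0 in every library, and whether reads in the shared exons were left out of the LIN37 counts was not tested. Its level cannot therefore be read as that of the transcript. Over all members tested, 4 of 7 had both knockdown libraries above both control libraries and 1 of 7 had both below, where the shares over all tested genes were 32.8% and 33.5%.

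Compared per kilobase of the listed gene length (FPKM recomputed from the counts and the TMM-normalized library sizes), the order of the members changed between the groups. In siControl the levels were 8.82 ± 0.552 FPKM for RBBP4, 8.39 ± 0.0564 FPKM for MYBL2 and 8.33 ± 0.801 FPKM for FOXM1 (SD, n = 2), and the libraries of FOXM1 overlapped those of both RBBP4 and MYBL2. These were followed at a distance by LIN52 with 2.24, LIN9 with 2.23 and LIN54 with 1.98 FPKM, each overlapping its neighbour in this order, and then by MYBL1 with 0.454 and LIN37 with 0.201 FPKM. In siALKBH5 MYBL2 ranked highest with 21.4 ± 0.409 FPKM, then FOXM1 with 17.9 ± 0.0473 and RBBP4 with 7.64 ± 0.0667 FPKM (SD, n = 2). The other 5 members kept their order, with 2.51 for LIN52, 2.46 for LIN9, 2.37 for LIN54, 0.585 for MYBL1 and 0.100 FPKM for LIN37.

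Because MYBL2 and FOXM1 act through the core, their levels were set against it within each library. The FPKM of MYBL2 over the mean FPKM of the 5 core genes was 2.70 and 2.73 in siControl and 6.95 and 7.26 in siALKBH5. For FOXM1 the ratio was 2.85 and 2.54 in siControl and 5.91 and 5.98 in siALKBH5. Both ratios were thus clearly separated between the groups, with differences of 1.39 for MYBL2 and 1.15 for FOXM1 on the log2 scale. With 2 libraries in each group an exact two-sided permutation test cannot give less than p = 0.33, which both ratios reached. RBBP4, the most abundant core gene and the one called lower, contributed to this, and without it the differences were 1.19 and 0.95. LIN37, whose level cannot be read as that of its transcript, was kept in both means, and its effect on the ratios was not tested.

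**Figure D2:**
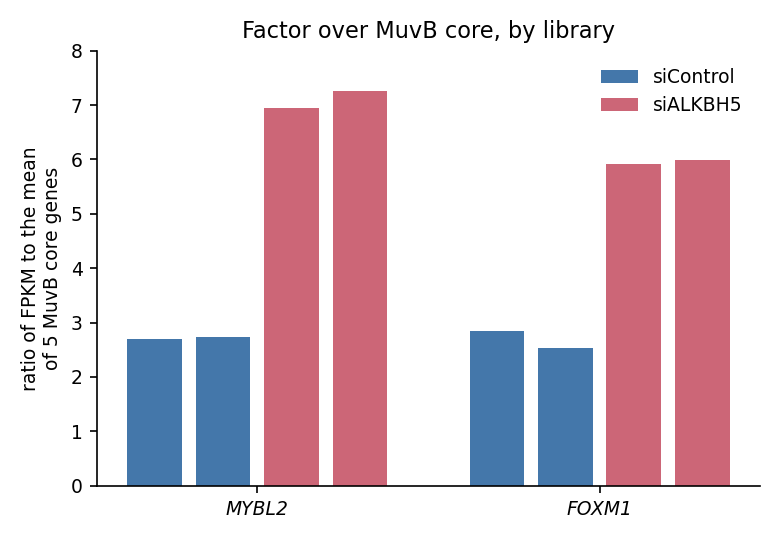
Ratio of the FPKM of MYBL2 or FOXM1 to the mean FPKM of LIN9, LIN37, LIN52, LIN54 and RBBP4, 1 bar per library in the order of replicates, with siControl in blue and siALKBH5 in red. The ratio of MYBL2 is 2.70 and 2.73 against 6.95 and 7.26, and that of FOXM1 is 2.85 and 2.54 against 5.91 and 5.98.

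The genes for the proteins that turn the core into DREAM were called in both directions. Of the 6 listed, RBL1 and TFDP1 were called higher, RBL2 was called lower and the other 3 were not called, where 19.3% and 17.3% of all tested genes were called higher and lower, so the counts of this short list are near the background. RBL1, which encodes the pocket protein p107 that is itself made in cycling cells, had 13.9 and 14.8 CPM in siControl and 19.4 and 20.7 CPM in siALKBH5 (log2 fold change 0.48, adjusted p = 3.5e-04). RBL2, which encodes p130, the pocket protein of resting cells, had 123.3 and 124.1 CPM in siControl and 108.0 and 109.7 CPM in siALKBH5 (log2 fold change -0.19, adjusted p = 3.8e-04). The pocket protein genes therefore changed in opposite directions, by much less than MYBL2 or FOXM1. TFDP1, the usual dimer partner of E2F proteins, rose by 0.40 on the log2 scale (adjusted p = 4.6e-10), whereas the log2 fold changes were 0.09 for E2F4, -0.33 for E2F5 and -0.16 for TFDP2, with adjusted p of 0.16, 0.19 and 0.053. TFDP2 was called lower when only library size was used for scaling (adjusted p = 0.028) and without siControl replicate 1 (adjusted p = 0.035), and E2F4 was called higher without siALKBH5 replicate 1 (log2 fold change 0.16, adjusted p = 0.036).

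Of the 9 genes listed as regulators of these factors, 6 were called higher and none was called lower. Over all tested genes, 19.3% were called higher and 17.3% lower. PLK1, the mitotic kinase that phosphorylates FOXM1, had 71.6 CPM in both siControl libraries and 144.8 and 142.4 CPM in siALKBH5, with a log2 fold change of 1.00 (adjusted p = 1.6e-19). CCNA2, the cyclin that activates MYBL2 and FOXM1 together with CDK2, had 53.6 and 57.4 CPM in siControl and 98.1 CPM in both siALKBH5 libraries, with a log2 fold change of 0.82 (adjusted p = 3.1e-15). CCNF, a cyclin F box protein that holds B-MYB in check, had 29.5 and 28.8 CPM against 52.6 and 50.9 CPM (log2 fold change 0.83, adjusted p = 5.9e-12). The groups did not overlap for any of these genes, where 32.8% of all tested genes had both knockdown libraries above both control libraries. The smaller rises were those of CDK2 by 0.43, of CDKN1A, the inhibitor that favours DREAM, by 0.27, and of FZR1, which directs FOXM1 to degradation, by 0.24 on the log2 scale. DYRK1A, the kinase that phosphorylates LIN52, had a log2 fold change of 0.01 (adjusted p = 0.93), and CCNE1 and CCNE2, the cyclins of the G1 to S transition, had only 12 to 47 counts per library and were not called.

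Relatives of the members did not show rises of the size seen for MYBL2 and FOXM1. MYB, the founding gene of the MYB family, was counted 36 and 59 times under siControl against 43 and 29 times under siALKBH5 (log2 fold change -0.44, adjusted p = 0.23). TESMIN, a testis relative of LIN54, had a log2 fold change of 0.34 (adjusted p = 0.075) and was called higher without siALKBH5 replicate 2 (0.49, adjusted p = 0.018). RBBP7, the near copy of RBBP4, had 103.8 and 105.1 CPM in siControl and 114.0 and 123.8 CPM in siALKBH5 and was called higher (log2 fold change 0.18, adjusted p = 9.3e-04), the reverse of RBBP4, although not without siALKBH5 replicate 2 (adjusted p = 0.052). Among other forkhead genes, FOXK1 and FOXK2 rose by 0.15 and 0.23 on the log2 scale, and FOXO3 had a log2 fold change of 0.03 and was not called.

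**Figure D3:**
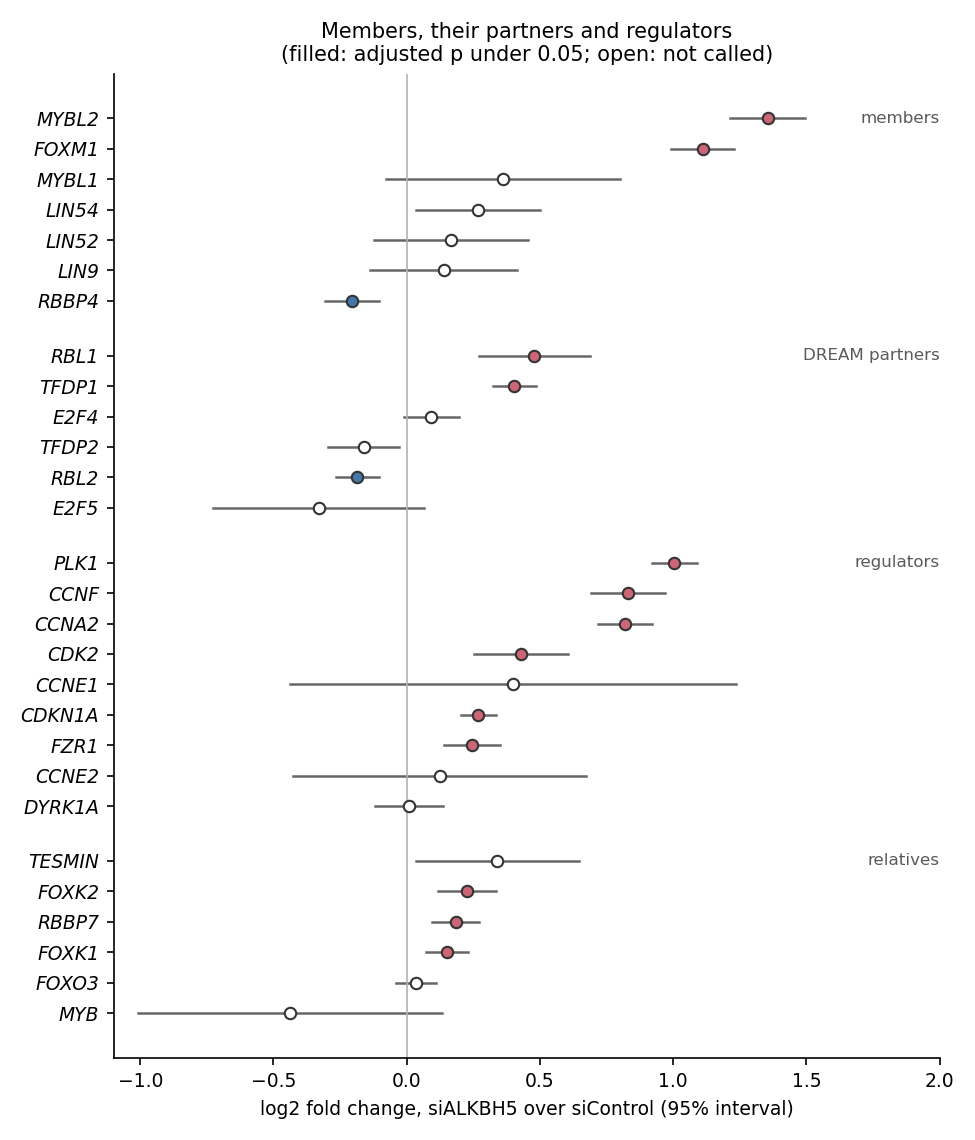
Log2 fold change of siALKBH5 over siControl with its 95% interval for the 7 tested members and for their DREAM partners, regulators and relatives; filled points are called at an adjusted p under 0.05 (red higher, blue lower) and open points are not called. MYBL2 at 1.35 and FOXM1 at 1.11 lie to the right of all other genes shown, with PLK1 at 1.00 next.

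The listed genes that MuvB with MYBL2 and FOXM1 is known to activate in G2 and mitosis rose nearly without exception. Of 40 listed G2/M targets, all were tested and 39 were called higher (97.5%, against 19.3% of all tested genes). None was called lower, and the median log2 fold change of the list was 0.80, against -0.0081 over all tested genes. Like the other lists, this one was drawn up with earlier results of these data known. Its share therefore describes the list and does not test it. The largest changes were those of BIRC5, which encodes survivin, from 36.0 and 36.6 to 82.8 and 75.7 CPM (log2 fold change 1.13), and of its partner in the chromosomal passenger complex CDCA8, from 32.0 and 35.2 to 70.9 and 68.8 CPM (log2 fold change 1.06). CENPE, the kinetochore motor, rose by 1.04 and PLK1 by 1.00 on the log2 scale, and with BIRC5 and CDCA8 they were the 4 targets that reached 1. Every target on the list changed by less than MYBL2, and all except BIRC5 by less than FOXM1. PLK1 and CCNA2 are counted here and among the regulators above.

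The smallest changes on the G2/M list were 0.28 for PRC1, 0.40 for NUSAP1, 0.48 for ECT2 and 0.52 for CDK1 on the log2 scale. CDK1, the kinase of mitotic entry, and ECT2, which starts cytokinesis, were called higher (adjusted p = 2.6e-09 and 6.8e-10). PRC1, a microtubule bundler of the spindle midzone, was counted 19 and 26 times under siControl and 28 times in both siALKBH5 libraries and was the target that was not called (adjusted p = 0.58). NUSAP1, another spindle protein, had 139 and 127 against 188 and 173 counts and an adjusted p of 0.027, which rose to 0.13 with DESeq2, 0.29 without siControl replicate 2 and 0.087 without siALKBH5 replicate 2. Overlapping annotated genes share 58.4% of the exonic bases of PRC1 and 62.2% of those of NUSAP1, in both cases almost entirely on the same strand, and the effect on these counts was not tested.

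Listed targets of E2F and DREAM that act at the G1 to S transition and in replication rose as well, but over a wider range. All 31 listed were tested and 26 were called higher (83.9%, against 19.3% of all tested genes). None was called lower, where 17.3% of all tested genes were. The median log2 fold change was 0.69, against -0.0081 over all tested genes. This list too was drawn up with earlier results of these data known, so these values describe it and do not test it. CCNE1 and CCNE2 are counted here and among the regulators above. CDC45, part of the replicative helicase, was counted 70 and 63 times under siControl against 279 and 258 times under siALKBH5 (log2 fold change 1.97, adjusted p = 8.5e-13). ORC1, of the origin recognition complex, followed with 1.56, DTL, an adaptor that removes the licensing factor CDT1, with 1.42, and MCM10, which helps to open origins, with 1.28. These 4 genes changed by more than any gene of the G2/M list. At the other end, SLBP, which binds histone mRNA, had a log2 fold change of 0.00, CCNE2 of 0.12 and MCM3 of 0.14, none of which was called, while PCNA, the sliding clamp, was called with 0.25. Without siALKBH5 replicate 1, MCM3 was called higher (0.24, adjusted p = 0.011).

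**Figure D4:**
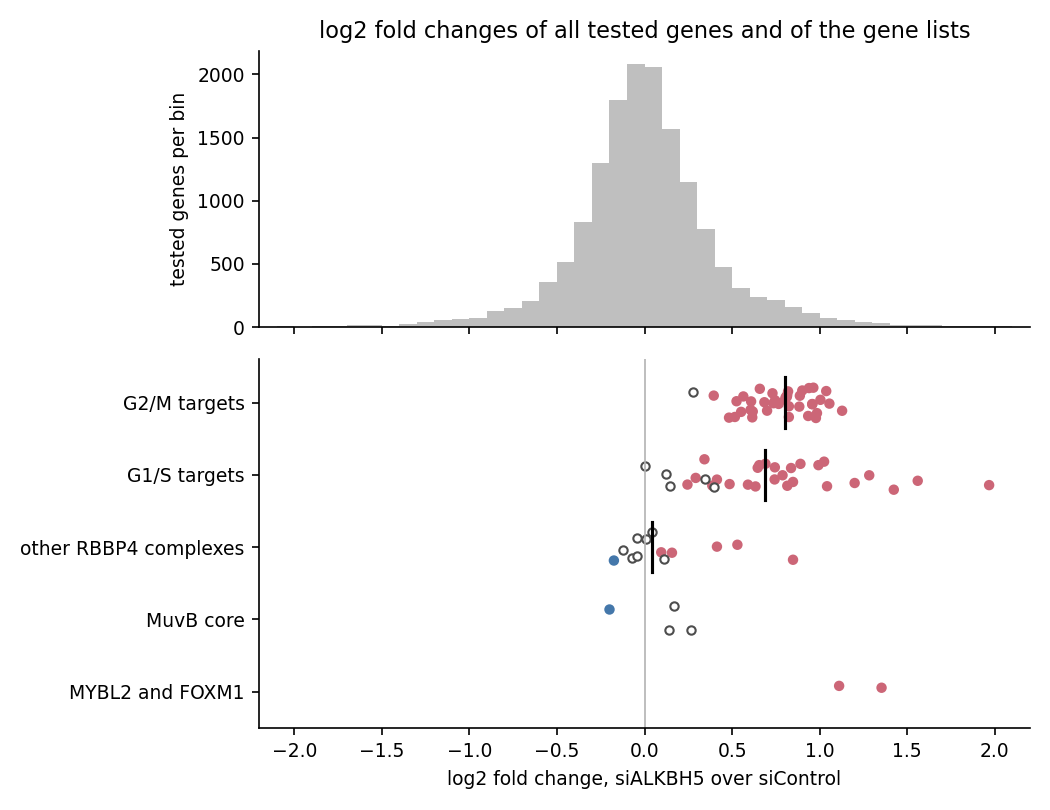
Upper panel, number of tested genes in each bin of 0.1 of the log2 fold change of siALKBH5 over siControl; lower panel, the tested genes of each list, filled where called (red higher, blue lower) and open where not, with a line at the median of lists with more than 4 genes. The G2/M targets (median 0.80) and G1/S targets (median 0.69) lie to the right of zero, the tested MuvB core genes lie between -0.21 and 0.27, and MYBL2 and FOXM1 are at 1.35 and 1.11.

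The promoter elements shown above divided these lists. The CHR letters were present in 26 of the 35 G2/M targets with a window (74.3%) and in 2 of 27 G1/S targets (7.41%), whereas the E2F letters were present in 9 of the G2/M targets and 18 of the G1/S targets. CCAAT was found in 31 and 19 of them, and in 42.9% of tested genes with a window. These lists were drawn up from genes known for such promoters, so the shares describe the lists and do not test them. Over all tested genes the letters alone went with little difference: the median log2 fold change was 0.02 for 1589 genes with a CHR and -0.0046 for 8785 genes without one, and 25.5% against 21.0% were called higher. For the 464 genes with both a CHR and an E2F element, the median was 0.06 and 32.5% were called higher.

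RBBP4 also belongs to the CAF-1, PRC2, NuRD and SIN3 complexes, and 13 of their other subunits were examined. Of these, 5 were called higher (38.5%, against 19.3% of all tested genes), 1 was called lower (against 17.3%) and the median log2 fold change was 0.05. The chaperone CAF-1, which assembles nucleosomes on new DNA, rose in both its large subunits, CHAF1B by 0.85 and CHAF1A by 0.41 on the log2 scale, and both are also on the G1/S list. EZH2, the methyltransferase of PRC2, rose from 16.2 CPM in both siControl libraries to 23.5 and 23.3 CPM (log2 fold change 0.53, adjusted p = 2.9e-05). HDAC1 was called higher with 0.16 and HDAC2, its paralog, was called lower with a log2 fold change of -0.17 (adjusted p = 0.0011), close to that of RBBP4. EED, CHD4 and SIN3A had log2 fold changes of -0.12, -0.07 and -0.05 and were not called. Annotated genes share 53.5% of the exonic bases of CHD4, and 46.9% are shared on the same strand. The effect on the counts of CHD4 was not tested.

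Among the 1050 genes that the deposited tables annotate as transcription factors and that were tested, MYBL2 ranked 5 and FOXM1 ranked 10 by log2 fold change. The median of these factors was -0.08, and 11.6% of them were called higher. By FPKM, MYBL2 moved from rank 238 in siControl to rank 70 in siALKBH5 and FOXM1 from rank 242 to rank 94. FOXM1 had the largest log2 fold change of the 26 tested genes with a forkhead annotation, and MYBL2 of the 21 with a MYB annotation, a class that also holds SANT domain proteins of chromatin complexes. MYBL1 came second in that class and ranked 75 among all factors.

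The genes whose pattern over the 4 libraries was most like that of MYBL2 were sought among 9259 genes with a mean of at least 10 CPM, by the root mean square difference of log2 CPM after centring each gene. They were LRP8, a lipoprotein receptor, SLC1A4, an amino acid transporter, SPAG5, a spindle protein, ST6GAL1, a sialyltransferase, and TUBA1B, an alpha-tubulin, with differences of 0.050 to 0.081. Those most like FOXM1 were CDC6, which loads the replicative helicase, TP73, a transcription factor, NUP210, a nuclear pore protein, UBE2S, an enzyme of the anaphase-promoting complex, and the mitotic kinase HASPIN, with differences of 0.052 to 0.059. With only 4 libraries in 2 groups, this likeness mostly reflects a similar size of change, from 1.18 to 1.49 for the first 5 genes and from 1.04 to 1.2 for the others on the log2 scale.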

How the data were processed

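Raw counts per gene and FPKM were deposited by the authors in 1 table per replicate. The submitters' processing notes name HISAT2 2.0.5, featureCounts 1.5.0-p3 and DESeq2 1.20.0 with hg38, and the strand setting is not given in the sources used here. Since the authors' FPKM rest on library sizes set for each table on its own, FPKM were recomputed from the counts. All 58735 identifiers are in GENCODE 29. Columns of the authors' own comparisons (log2 fold changes and p-values of 1 library against 1) were not used. The quasi-likelihood test of edgeR 4.0.16 (R 4.3.3) was run on the counts of all 4 libraries after filterByExpr and TMM, with no covariates. Alternatives were DESeq2 1.42.0, other scalings and filters, a fold threshold, a block for the replicate number, and the omission of each library. The steps were tested on simulated data. Members and lists were chosen with earlier results of these data known, and 2 listed genes are not reported here. Named genes were ALKBH5, all members, partners, regulators and relatives, and of each target or complex list the 4 largest and 4 smallest changes and any called lower, overlapping genes, pseudogenes, and the 5 genes most like MYBL2 and FOXM1.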

Additional observations from a re-analysis of the deposited data

How the results depend on the processing

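MYBL2 and FOXM1 were called higher under every alternative run, with log2 fold changes of 1.34 to 1.38 and 1.01 to 1.21 when each library was left out in turn. The differences in their ratio to the core were then 1.36 to 1.42 for MYBL2 and 1.06 to 1.23 for FOXM1. Of the 51 named genes tested, 36 kept their direction and their side of the threshold throughout. With a log2 fold change of at least 1 required, 4 G2/M targets, 7 G1/S targets, 244 genes higher, 196 genes lower and 0 members lower were called, by construction fewer than without it. DESeq2 called 1444 genes lower, against 2610 with edgeR, and the cause was not tested. Without single libraries, 2 to 3 members were called higher, 0 to 1 lower, 38 to 39 G2/M and 26 G1/S targets higher, 2366 to 2528 genes higher and 1961 to 2124 lower, with fewer libraries in each fit. The direction turned, without a call on either side, for LIN9 (-0.019 to 0.33 over the fits without 1 library), DYRK1A (-0.024 to 0.044), CCNE1 (-0.023 to 0.94), CCNE2 (-0.092 to 0.36), FOXO3 (-0.00090 to 0.070), SLBP (-0.067 to 0.078) and CHD4 (-0.25 to 0.075), and with library size only for DYRK1A (-0.013) and SLBP (-0.020). Same-numbered libraries were deposited in the same table, but the labels name no shared culture, batch or day, and the correlation of their deviations was 0.107 over 2 pairs, too few to take them as pairs. With the replicate number as a block, the log2 fold change of LIN54 was 0.27 with an adjusted p of 0.046, and TFDP2 was also called (-0.16, adjusted p = 0.041). The counts of LIN37 and MYBL1 leave wide intervals at this depth, and for LIN37 the effect of shared exons was not tested.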
